A study of Mus musculus with 4 samples.

Results

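The subject is a set of 1680 stretches of mouse genome, each 1 kb long, in which CpG methylation of Tet1 knockout (KO) embryonic brain was at least 25 percentage points above that of wild type (WT) under both maternal diets studied. Methylation was measured by whole-genome bisulfite sequencing, which reads a methylated cytosine as C and an unmethylated one as T, so that the level of a site is the share of its reads that kept the C. The autosomes were divided into tiles of 1 kb, and a tile was considered when it held 3 or more CpGs with 5 or more reads in all 4 libraries and 50 or more summed reads in each. Members were chosen by the read-summed difference KO minus WT, 25 points or more at 30 ppm and at 3 ppm, and 40 to 46 Mb of chromosome 10 were left out. They are 1680 of 1524900 tiles (0.110%) and lie on all 19 autosomes. Because the gain itself selected them, its size is a description and carries no test.

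All 4 libraries came from individual embryonic brains at E11.5, taken from the rostral forebrain to the hindbrain, of embryos recorded as male on the 129S6.cg Tet1<tm1Koh> background. The allele is a knock-in that disrupts Tet1 near the start of its coding sequence, was first held as a B6 congenic line and was brought into 129S6 by backcrossing. The start of the short Tet1 isoform lies downstream of it. Dams heterozygous for Tet1 were fed a custom diet with succinylsulfathiazole, an antibiotic that limits folate made by gut bacteria, and with either 30 ppm folic acid (excess) or 3 ppm (control). The groups were KO at 30 ppm, WT at 30 ppm, KO at 3 ppm and WT at 3 ppm, with 1 library each, so no value has a replicate error and the intervals given cover counting error only. The embryo numbers in the titles match a list of the study for another assay, in which both KO embryos had a neural tube defect (NTD) and both WT embryos were normal, and all 4 came from different litters. Genotype, phenotype and litter therefore cannot be told apart here, and the tissue label cannot be checked against expressed markers in methylation data.

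TET1 is a dioxygenase that oxidises 5-methylcytosine as a step towards its removal, and its long isoform carries a CXXC domain that binds CpG-rich DNA. In mammalian genomes most CpGs are methylated, while CpG islands, the CpG-dense stretches found at many promoters, are mostly free of methylation, and their edges, the shores, often hold intermediate levels. Bisulfite treatment does not separate 5-methylcytosine from its first oxidation product, 5-hydroxymethylcytosine, so each level here is the sum of both.

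Sequences are shown for 7 members, because the members stand out by how many CpGs they hold and these windows carry some of the largest differences: 5 beside a gene start and 2 far from any. Each is 300 bases of the tile chosen for most CpGs, read from the RefSeq GRCm38.p6 sequence on the forward strand (+), with CpGs in capitals. Only sequence without an annotated untranslated base was shown. The coding, intronic or intergenic place of a window therefore follows in part from that choice. The Trim58 window at chr11:58640468-58640767 holds 26 CpGs and lies wholly in coding sequence. The Rims2 window at chr15:39660168-39660467 has 10 CpGs and is intronic. At Nphs1, chr7:30460419-30460718 holds 12 CpGs and 226 coding bases. The Atp2b2 window, chr6:113890106-113890405, has 11 CpGs in an intron. In Tmem233, chr5:116082678-116082977 has 12 CpGs and 56 coding bases. The intergenic windows are chr13:55962130-55962429, whose nearest protein-coding gene is Pitx1, with 11 CpGs, and chr11:114560666-114560965, nearest to Rpl38, with 8.
Trim58: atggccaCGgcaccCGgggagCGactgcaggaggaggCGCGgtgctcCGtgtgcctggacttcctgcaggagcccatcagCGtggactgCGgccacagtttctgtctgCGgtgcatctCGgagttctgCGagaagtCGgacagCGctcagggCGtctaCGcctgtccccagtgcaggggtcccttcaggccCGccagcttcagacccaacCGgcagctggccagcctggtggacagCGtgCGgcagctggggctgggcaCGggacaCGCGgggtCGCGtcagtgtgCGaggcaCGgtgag
Rims2: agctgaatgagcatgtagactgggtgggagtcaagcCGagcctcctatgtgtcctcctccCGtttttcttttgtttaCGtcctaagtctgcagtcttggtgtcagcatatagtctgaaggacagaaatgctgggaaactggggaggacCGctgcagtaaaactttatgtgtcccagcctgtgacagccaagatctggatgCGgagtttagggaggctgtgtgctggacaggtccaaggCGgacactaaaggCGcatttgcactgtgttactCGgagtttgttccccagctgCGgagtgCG
Nphs1: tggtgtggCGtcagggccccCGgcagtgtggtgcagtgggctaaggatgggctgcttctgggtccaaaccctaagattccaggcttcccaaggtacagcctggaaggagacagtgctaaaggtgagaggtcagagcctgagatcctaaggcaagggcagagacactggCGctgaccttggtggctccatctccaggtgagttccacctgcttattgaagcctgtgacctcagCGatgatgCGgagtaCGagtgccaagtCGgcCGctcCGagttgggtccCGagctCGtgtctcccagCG
Atp2b2: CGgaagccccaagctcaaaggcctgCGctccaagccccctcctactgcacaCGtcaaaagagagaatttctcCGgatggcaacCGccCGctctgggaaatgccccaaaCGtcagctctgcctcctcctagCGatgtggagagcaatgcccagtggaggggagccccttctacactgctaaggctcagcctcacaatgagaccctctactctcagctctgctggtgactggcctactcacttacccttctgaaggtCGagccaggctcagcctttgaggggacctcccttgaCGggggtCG
Tmem233: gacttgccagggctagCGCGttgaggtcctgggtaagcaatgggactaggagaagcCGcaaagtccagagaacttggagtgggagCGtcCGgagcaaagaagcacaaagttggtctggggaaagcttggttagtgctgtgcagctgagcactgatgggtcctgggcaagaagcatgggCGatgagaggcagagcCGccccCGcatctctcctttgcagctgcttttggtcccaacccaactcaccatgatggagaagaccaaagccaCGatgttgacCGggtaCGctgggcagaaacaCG
Near Pitx1: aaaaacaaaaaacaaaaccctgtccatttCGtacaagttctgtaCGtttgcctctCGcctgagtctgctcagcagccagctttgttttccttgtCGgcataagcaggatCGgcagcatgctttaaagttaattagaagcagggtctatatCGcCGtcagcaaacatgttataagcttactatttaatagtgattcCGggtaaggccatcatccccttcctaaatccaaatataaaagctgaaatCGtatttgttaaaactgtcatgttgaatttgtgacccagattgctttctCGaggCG
Near Rpl38: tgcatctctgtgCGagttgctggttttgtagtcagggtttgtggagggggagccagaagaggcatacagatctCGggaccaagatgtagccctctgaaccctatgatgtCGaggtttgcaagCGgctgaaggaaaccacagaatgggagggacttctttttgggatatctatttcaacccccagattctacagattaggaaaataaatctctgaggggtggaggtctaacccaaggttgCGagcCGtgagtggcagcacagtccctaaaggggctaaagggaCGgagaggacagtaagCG

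In the Trim58 window, 69.9% of KO reads and 6.25% of WT reads were methylated at 30 ppm, and 68.2% and 6.23% at 3 ppm. The 226 coding bases at Nphs1 belong to a window at 86.9% and 86.8% in the KO libraries against 26.3% and 38.1% in WT. The Atp2b2 window stood at 91.7% (KO) and 8.51% (WT) at 30 ppm and at 88.3% and 30.1% at 3 ppm. These levels rest on 47 to 83 reads per library summed over 7 measured CpGs, where a read counts at each CpG it covers. Both KO libraries lay far above both WT libraries in each of these windows. The window near Pitx1 read 72.8% and 67.7% in KO and 9.90% and 21.3% in WT, and that near Rpl38 read 68.3% and 60% in KO and 22.0% and 14.5% in WT.

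The libraries covered autosomal CpGs with a mean of 13.2 reads (KO, 30 ppm), 14.3 (WT, 30 ppm), 21.2 (KO, 3 ppm) and 16.2 (WT, 3 ppm). Mitochondrial CpGs, which served as a check of conversion, were read as methylated in 0.914% to 0.938% of reads. In members the median number of summed reads was 129, 136, 214 and 156 in the same order. A read is counted at each CpG it covers, so these reads are not independent molecules. With that limit, the 95% interval of a member's difference (Newcombe's method) had a median width of 21.4 points at 30 ppm and 18.4 at 3 ppm. Since the rule used the same differences, where these intervals lie is no evidence of a gain.

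The members were mostly of intermediate methylation in WT and of higher, still mostly incomplete methylation in KO, where 1193 (71%) lay between 50 and 80% and 244 (14.5%) at 80% or more. Across members the level ran from 26% to 95.9% in KO at 30 ppm (median 66.7%) and from 0.943% to 70.7% in WT (median 32.9%). At 3 ppm it ran from 27.4% to 96.1% in KO (median 66.5%) and from 0% to 66% in WT (median 32.3%). The genotypes overlap across members, but within each member both KO libraries exceed the WT library of the same diet by construction. The difference had a median of 31.9 points at 30 ppm (quartiles 28.3 and 37.3) and 31.4 at 3 ppm (27.9 and 37.0), and its highest values were 76.8 and 81.2. As a share of the part that was unmethylated in WT, the gain in KO had a median of 50.4% and a lowest value of 26.7%. The rule, by asking for a gain, sets a floor to this share.

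The opposite change was almost absent at this size. Tiles with KO at least 25 points below WT at both diets numbered 2, against the 1680 members, and 5 tiles passed 25 points with opposite signs at the 2 diets. A diet difference of 25 points in the same direction in both genotypes was found in 0 tiles in either direction. A difference of 25 points or more at 30 ppm alone or with 3 ppm was present in 5995 tiles, of which members are 28.0%, and the same at 3 ppm in 3962, of which members are 42.4%. Over all tiles the median of KO minus WT was 1.26 points at 30 ppm and -0.110 at 3 ppm, so the members are the far end of a distribution centred near 0.

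Of the 486 members with a gene start within 1 kb, the one with the largest smaller gain of the 2 diets lay at Trim58, which encodes an E3 ubiquitin ligase of red cell precursors. The genes of this paragraph are given in order of that smaller gain. The largest gain at 30 ppm alone was that of Atp2b2, at 76.8 points. The Trim58 tile, chr11:58640001-58641000, is a CpG island whose midpoint sits 35 bp after the start site, with 71.6% (KO) and 12% (WT) at 30 ppm and 68.6% and 9.54% at 3 ppm. Rims2, a scaffold of the presynaptic active zone, had a tile at 75.5% and 14.4% at 30 ppm and 68.5% and 11% at 3 ppm. Nphs1, which encodes the kidney slit-diaphragm protein nephrin, stood at 79.3% and 23.4%, then 79.8% and 24.1%. For these 3 genes both KO libraries lay far above both WT libraries, and the WT libraries of the 2 diets differed by at most a few points. At Atp2b2, a plasma membrane calcium pump, the KO level was 87.7% at 30 ppm and 85.6% at 3 ppm. The WT level was 10.9% and 30.0%, on 55 and 90 reads summed over 8 CpGs. Tmem233 read 87.5% and 72.6% in KO and 20.9% and 20.6% in WT.

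Further down that order were, among others, the genes of a pair of neuropeptides, a protocadherin and a potassium channel. They are a selection and not in that order, and others that ranked between them, such as Scin and Btbd3, are only plotted. Npy, encoding neuropeptide Y, had KO levels of 63.7% and 69.9% and WT levels of 19.1% and 18.8%, the 30 ppm library first. The island at the start of Cck, encoding the peptide cholecystokinin, read 53.5% and 54.6% in KO and 9.06% and 7.65% in WT. Both peptide genes were several-fold more methylated in KO. The KO level of Npy was a few points lower at 30 ppm, a difference that was not called (Fisher's exact test, adjusted p = 0.88). Pcdh7, a protocadherin, had 62.2% and 68.7% in KO and 12.6% and 14.5% in WT. Kcna5, a voltage-gated potassium channel, had 72.3% and 83.8% in KO and 23.2% and 27.6% in WT. Over the 19 genes first in that order, which are plotted, KO ranged from 50.0% to 91.2% at 30 ppm and from 48.8% to 85.6% at 3 ppm, and WT from 5.41% to 29.8% and from 4.35% to 34.0%, so that no WT value reached any KO value.

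**Figure D1:**
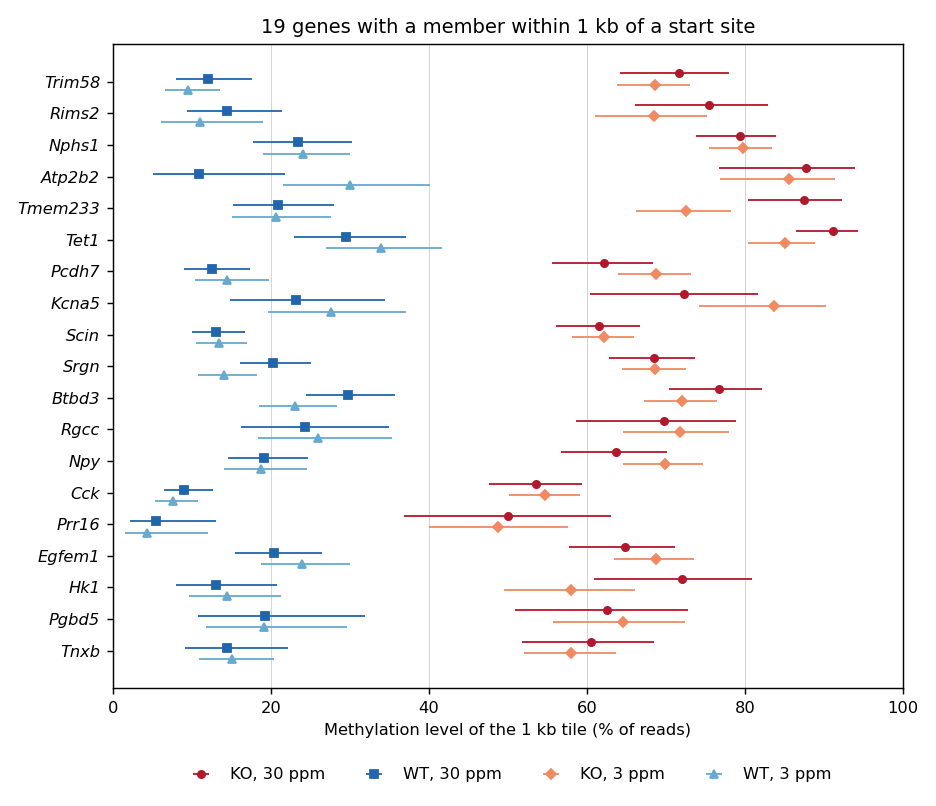
Methylation level of the member tile at 19 genes with a start site within 1 kb (x axis, percent of reads), with 1 point per library and 95% Wilson intervals of counting error as bars. The bars take the summed reads of a tile as independent, which they are not. All KO points lie at 48.8% or higher and all WT points at 34.0% or lower, which the choice of members by this difference brings with it.

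Tet1 itself is among the 19. Its tile, chr10:62881001-62882000, lies inside the gene (chr10:62804570-62899118) near an internal start site and read 91.2% and 85.1% in KO and 29.5% and 34.0% in WT. A run of 3 adjacent members, chr10:62883001-62886000, in a Tet1 intron read 92.1% and 91.1% in KO and 44.7% and 43.6% in WT. Together they made 4 members among 88 tiles of the gene. In the 5 Mb on either side, with the gene left out, 11 of 7059 tiles (0.156%) were members, and in the rest of chromosome 10 they were 48 of 75846 (0.0633%). Over all tiles the share was 0.110%, and on the whole of chromosome 11 it was 0.164%, so the share near Tet1 was within the range of whole chromosomes. Srgn, encoding the granule proteoglycan serglycin (68.5% and 68.6% in KO, 20.3% and 14.1% in WT), and Hk1, a hexokinase (72.0% and 58.0% in KO, 13.1% and 14.5% in WT), are members of that neighbourhood. Since the KO allele came from a B6 line, the strain of the flanking DNA and the genotype cannot be told apart there. A sequence difference at a fully methylated CpG would give 95% or more in both libraries of one genotype and 5% or less in both of the other. Such CpGs numbered 114 in the stretch of chromosome 10 left out, 3 in the rest of the autosomes and 0 in members. At a partly methylated CpG a sequence difference would not reach these limits. Only 21.5% of member CpGs were above 80% at both diets in KO, and 3.05% in WT, so nothing is read from the 0 in members.

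In all, 472 of 19396 protein-coding genes with a considered tile within 1 kb of a start site (2.43%) had a member there, 31 of them more than 1 and none more than 4. Genes of ion channels had a larger share, in lists chosen with earlier results of these data known. Among 88 potassium channel genes 14 had a member (15.9%), and among 70 sodium and calcium channel genes 9 did (12.9%). Kcnj4, an inward rectifier, read 50.0% and 57.6% in KO and 13.4% and 12.1% in WT. Cacng2, encoding the AMPA receptor partner stargazin, read 63.4% and 65% in KO and 13.5% and 26% in WT. Scn3b, a sodium channel beta subunit gene, read 57.7% and 53.0% in KO and 16.5% and 20.3% in WT. In each of these 3 channel genes the lower KO value was above the higher WT value by more than 25 points.

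Receptors and synaptic proteins followed. Of 113 neurotransmitter receptor genes 10 had a member (8.85%), among them the adrenoceptor gene Adra2b (77.5% and 79.1% in KO, 36.7% and 32.7% in WT) and the metabotropic glutamate receptor gene Grm4 (47.1% and 40.2% in KO, 11.6% and 13.9% in WT). Of 116 synapse genes 10 did (8.62%), including, besides Rims2, the synaptotagmin gene Syt17 (85.9% and 86.7% in KO, 40.4% and 45.3% in WT). Muscle and heart contraction genes had 5 of 83 (6.02%), with the calcium release channel gene Ryr2 at 63.5% and 55.9% in KO and 17.5% and 18.3% in WT. Collagen and matrix genes had 7 of 126 (5.56%), led by Ncan, which encodes the brain proteoglycan neurocan (65% and 55.4% in KO, 21% and 19.7% in WT), and solute carriers had 16 of 358 (4.47%).

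Developmental regulators were closer to the share over all genes. There was no member within 1 kb of a start site in 39 Hox genes or in 21 T-box and GATA genes, and 4 of 100 other homeobox genes (4.00%), 2 of 65 basic helix-loop-helix genes (3.08%) and 1 of 39 forkhead genes (2.56%) had one. Twist2, a basic helix-loop-helix factor, read 63.0% and 59.1% in KO and 15.7% and 17.9% in WT. Cux2, a homeobox gene, had KO levels of 64.4% at 30 ppm and 45.7% at 3 ppm over WT levels of 15.8% and 14.9%. Axon guidance genes had 2 of 76 (2.63%), Wnt pathway genes 2 of 62 (3.23%), and genes of TGF-beta, BMP and FGF signalling 3 of 83 (3.61%), among them Fgf4, at 29.4% and 27.4% in KO and 2.56% and 2.22% in WT.

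Genes of neural tube closure, folate metabolism and DNA methylation bear on the study's question. Of 47 genes needed for neural tube closure in mouse, 2 (4.26%) had one: Grhl3, an epithelial transcription factor, at 62.9% and 61.3% in KO and 34.6% and 33.5% in WT, and Vangl2, a planar cell polarity protein, at 53.7% and 52.8% in KO and 20.8% and 27.5% in WT. None of 44 folate and one-carbon genes had a member. Members needed the gain at both diets, so a gain under the excess diet alone could not make a member. The paper reports a KO gain of that kind at a shore of the folate transporter gene Slc46a1, by targeted bisulfite sequencing of whole embryos. The absence of folate genes among members therefore says nothing about that result. Of 29 DNA methylation genes only Tet1 had a member. Tdrd6 was the only one of 57 germline genes, at 72.0% and 70.3% in KO and 36.3% and 42.6% in WT, and Trappc9 the only one of 36 imprinted genes, at 72.0% and 76.7% in KO and 34.1% and 44.7% in WT. Over the 20 lists together 90 of 1633 genes (5.51%) had a member, against 2.43% of all genes. No list was tested against that share. The lists were chosen with earlier results of these data known, so a larger share in them is a description and no evidence. Nor were they matched to all genes for the number of start sites or tiles.

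WT levels placed the members between the unmethylated and the fully methylated parts of the genome. The mean of both WT libraries had a median of 32.5% in members (quartiles 21.3% and 42.2%) and 88.1% over all tiles, and the mean of both KO libraries 66.8% and 88.4%. WT was under 20% in 370 members (22.0%), from 20 to 50% in 1148 (68.3%) and at 50% or more in 162 (9.64%). In 63 members both WT libraries were under 10%. A gain of 25 points has no room above a WT level of 75%, so the rule bounds this distribution from above. It does not bound it from below, where 87 of 14840 tiles with a WT level under 10% were members (0.586%). The share was 3.68% for 10 to 20%, 4.23% for 20 to 30%, 3.57% for 30 to 40%, 1.79% for 40 to 50% and 0.401% for 50 to 60%. For comparison below, the 81217 other tiles with a WT level of 10 to 60% are called intermediate tiles. Their median KO minus WT was 7.50 points at 30 ppm and 4.75 at 3 ppm, above the 1.26 and -0.110 of all tiles. These tiles were chosen by the WT level that is subtracted here, so the choice itself can raise this difference.

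Members held more CpGs than intermediate tiles, whose WT level was higher (median 47.4%, against 32.5% in members). The median was 21.5 CpGs per kb in the reference for members, 11 for intermediate tiles and 9 for all tiles. Under 10 CpGs per kb fell 88 members (5.24%), from 10 to 39 fell 1403 (83.5%), and 189 (11.3%) had 40 or more. Among tiles with WT of 30 to 40%, members were 0.642% of those with 0 to 9 CpGs per kb, 3.55% with 10 to 19, 7.55% with 20 to 39 and 6.67% with 40 or more. The share was thus higher with more CpGs up to 20 to 39 per kb, and a similar order was seen at 20 to 30%, with 0.912%, 4.06%, 6.99% and 4.70%. Tiles of these WT levels with few CpGs were seldom members. The median reads in KO at 30 ppm were 129 for members and 108 for intermediate tiles. Within 4 broad classes of WT level and CpG number, members had fewer reads than the other tiles. The medians were 118.5 against 131, 161 against 177, 103 against 130 and 170 against 181. The median GC content was 51.7% in members, 44.9% in intermediate tiles and 42.5% over all, and the median repeat-masked share 11.2%, 15.8% and 20.7%.

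**Figure D2:**
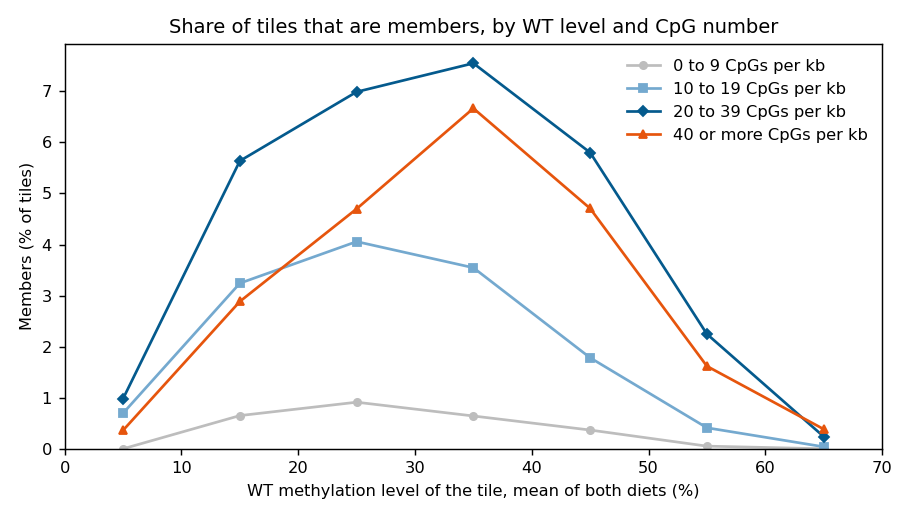
Share of tiles that are members (y axis, percent) by WT level, the mean of both diets (x axis, percent, classes of 10 points), with 1 line per class of CpGs per kb in the reference. Between 10 and 60% the line for 20 to 39 CpGs per kb lies highest, up to 7.55% at 30 to 40%, and that for 0 to 9 lies lowest.

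By CpG island context, called from the sequence as at least 200 bp with GC of at least 50% and observed over expected CpG of at least 0.6, 279 members overlapped an island (16.6%), 354 lay in a shore within 2 kb of one (21.1%), 78 in a shelf within 4 kb (4.64%) and 969 farther away (57.7%). Over all tiles the shares were 1.21%, 2.97%, 2.64% and 93.2%, and over intermediate tiles 8.97%, 10.9%, 3.31% and 76.8%. With stricter islands (at least 500 bp, GC of 55% and a ratio of 0.65) 21.6% of members were in islands or shores in place of 37.7%, against 12.8% of intermediate tiles and 2.51% of all. Island members had a median of 42 CpGs per kb, a WT level of 25.2% and a KO level of 60.3%. The members far from islands still held 20 CpGs per kb, with 34.5% in WT and 68.8% in KO. Members were thus dense in CpGs also where no island was called.

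A start site lay within 1 kb of 486 members (28.9%, Wilson 95% interval 26.8 to 31.1), against 17.2% of intermediate tiles and 3.47% of all tiles. Of the other members 326 touched an exon (19.4%, against 6.09% and 10.2%), 327 were intronic (19.5%, against 28.3% and 33.7%) and 541 were intergenic (32.2%, against 48.4% and 52.6%). Members at a start site had median levels of 27.8% in WT and 62.5% in KO, and exon members 35.7% and 71.5% with 26 CpGs per kb. By these medians the exon members were more methylated than the start-site members in both genotypes. At least 500 coding bases were found in 93 members (5.54%), in 0.616% of intermediate tiles and in 0.575% of all tiles.

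**Figure D3:**
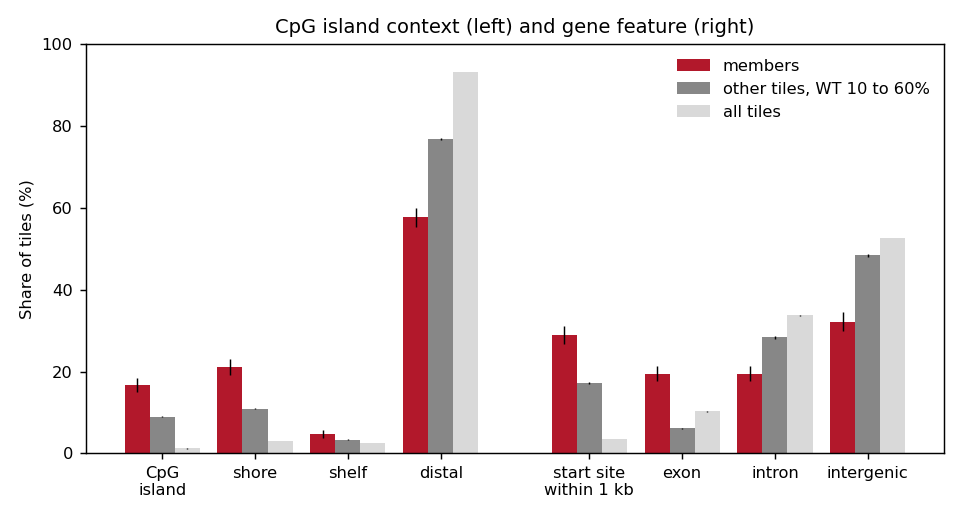
Share of tiles (y axis, percent) in each CpG island class (left) and gene feature (right) for members, intermediate tiles (WT of 10 to 60%) and all tiles, with 95% Wilson intervals as bars. Members have 28.9% at start sites and 19.4% in other exons, against 3.47% and 10.2% of all tiles, and 57.7% of them lie away from islands, shores and shelves.

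Members and other tiles were then compared within 4 classes of WT level (20 to 40% and 40 to 60%) and CpG number (10 to 19 and 20 to 39 per kb). The exon share was higher for members in all 4: 13.7% against 5.13%, 19.9% against 8.15%, 16.3% against 7.18% and 30.9% against 12.9%. For start sites the order was not the same throughout. With 10 to 19 CpGs per kb members were more often at a start site (22.7% against 19.5%, and 23.6% against 10.5%), and with 20 to 39 less often (29.0% against 47.0%, and 19.8% against 28.7%). Island or shore shares followed the same split, at 33.5% against 23% and 28.1% against 12.7% in the sparser classes and 30.1% against 47.3% and 24.4% against 29.2% in the denser. Within these 4 classes the exon share, and not the start-site share, was higher in members throughout. WT levels still differ within a class: with 10 to 19 CpGs per kb, 144 of 8078 tiles at 40 to 50% were members. At 50 to 60% it was 59 of 14340. Members with WT under 20% or with 40 or more CpGs per kb are in no class, so nothing is said of them.

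At start sites the members lay mostly on the transcribed side. The tile midpoint was downstream of the nearest start in 319 of 486 members (65.6%), against 51.3% of all tiles with a start within 1 kb and 51.0% of the intermediate ones. The start site itself was inside the tile in 185, the tile was wholly downstream in 213 and wholly upstream in 88. Around the start sites of the 472 genes, the first 500 bp after the start had mean CpG levels of 40.1% (KO, 30 ppm), 39.8% (KO, 3 ppm), 16.5% (WT, 30 ppm) and 16.0% (WT, 3 ppm). In the 500 bp before the start they were 36.3%, 36.4%, 18.7% and 19.1% in the same order. At the 36485 other start sites the levels after the start were 30.8% and 30.7% in the KO libraries and 27.5% and 27.6% in the WT libraries. Member genes enter with 472 start sites for 472 genes, and other genes with more than 1 start site per gene on average. The sets are thus not sampled alike, and what this does to the levels was not tested. The member tiles also enter this profile, so the order of member genes and other genes near the start cannot be read apart from the choice of members.

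**Figure D4:**
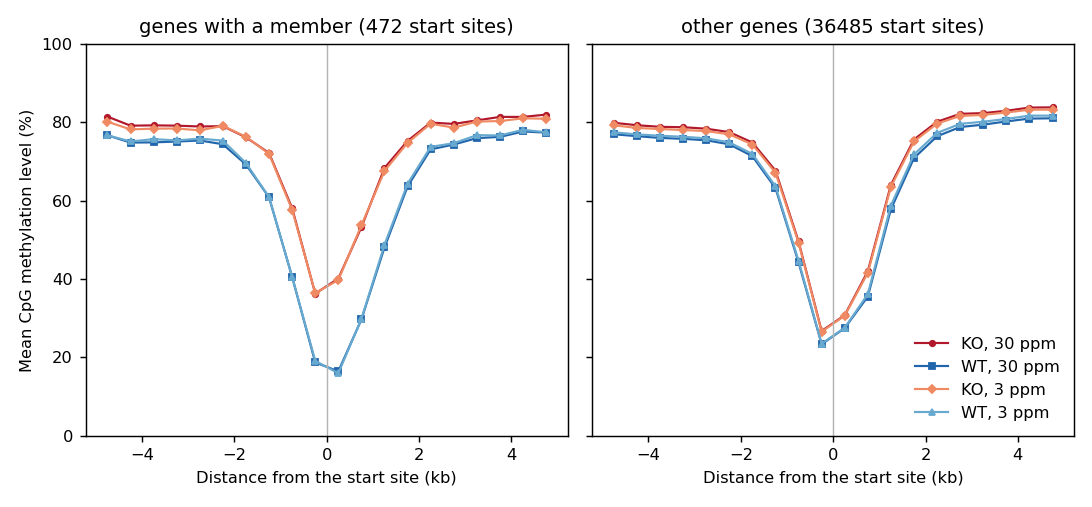
Mean methylation level of CpGs (y axis, percent) by distance from the start site (x axis, kb, transcribed side to the right), for genes with a member within 1 kb and for other start sites, with 1 line per library. In the first 500 bp after the start the KO points of member genes are 40.1% and 39.8% and the WT points 16.5% and 16.0%, and at other start sites all 4 lie between 27.5% and 30.8%, after which all lines climb.

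In bins of 250 bp around the tile centres the KO library at 30 ppm had a summed level of 65.4% just before the centre and the WT library 30.3%, and almost 5 kb away, at the outer edge, they had 81% and 77.2%. The tiles next to members that are not members themselves (2405 tiles), from which the rule had taken every tile that passed the gain at both diets, had median levels of 72.9% in WT and 82.4% in KO and median differences of 7.26 points at 30 ppm and 6.31 at 3 ppm (6.54 for the mean of both diets). KO was above WT in 85.2% and 81.2% of them, and by 10 points or more at both diets in 25.9%, against 60.3%, 48.9% and 1.67% of all tiles that are not members. The medians were 3.81 and 2.43 points at 2 kb and 2.71 and 1.52 at 5 kb, against 1.26 and -0.115 over those other tiles. Those other tiles had a median WT level of 88.1% and 9 CpGs per kb, against 72.9% and 14 next to members. The comparison is thus not matched, and the part of WT level and CpG number in it was not tested. A smaller difference outside the tile than inside it follows from the rule, which chose the tile for it. An unmethylated tile (WT under 10%) lay within 2 kb of 363 of 1668 members with a measured neighbour (21.8%) and of 13.8% of intermediate tiles.

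**Figure D5:**
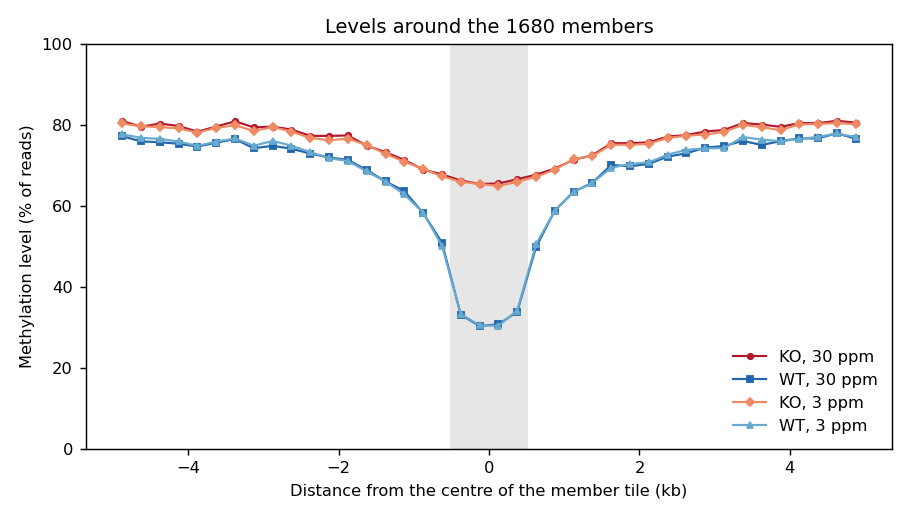
Summed methylation level (y axis, percent of reads) in bins of 250 bp by distance from the centre of the member tile (x axis, kb), with 1 line per library and the tile shaded. At the centre the WT lines are down to 30.3% and the KO lines to near 65%, and the genotypes draw together over the next 2 kb to within a few points of each other.

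Single CpGs show how the tile sums were made up, and since these CpGs enter the sums that the rule used, their direction was largely set by it. Of 23274 CpGs measured, KO was above WT at both diets in 20161 (86.6%), by 25 points or more at both in 49.6%, and not above at either in 633 (2.72%). The KO level of single CpGs was between 20 and 80% at both diets in 47.8% and above 80% in 21.5%. In WT, 39.9% of CpGs lay between 20 and 80% and 31.3% under 20%. The intermediate tile levels were thus in part intermediate at single CpGs, in both genotypes.

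Members were mostly isolated. They formed 1589 runs of adjacent tiles, of which 1508 were single tiles, 73 had 2 tiles, 6 had 3 and 2 had 4. The longest were at Cck and at Fam166b and Rusc2. The Cck run, chr9:121493001-121497000, covers the start site and read 67.4% (KO) and 29.0% (WT) at 30 ppm and 68.6% and 23.4% at 3 ppm. Within it the WT level was lowest in the island tile, while the other 3 tiles were at 28.5% or more in WT. The run chr4:43425001-43429000 reaches from exons of Rusc2 to the start of Fam166b, with 59.5% and 65.7% in KO and 26.9% and 21.3% in WT. A run of 3 tiles in exons of Wnk4, a kinase that regulates ion transport in the kidney, chr11:101263001-101266000, was nearly unmethylated in WT (6.80% and 7.12%) and read 45.1% and 43.5% in KO. Upstream of Ngfr, the low-affinity neurotrophin receptor gene, chr11:95596001-95599000 read 68.8% and 67.3% in KO and 35.2% and 25.2% in WT.

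Far from gene starts, 108 members had no start of any annotated gene within 50 kb (6.43%, against 22.7% of all tiles). By the smaller gain of the 2 diets the first, chr13:55962001-55963000, lies 131 kb upstream of Pitx1, a homeobox gene of hindlimb and pituitary, the nearest protein-coding gene, and read 72.1% and 68.1% in KO and 13.6% and 21.8% in WT. The next, chr11:114560001-114561000, lies 108 kb upstream of Rpl38, a ribosomal protein gene, with 68.3% and 60% in KO and 22.0% and 14.5% in WT. An island in an exon of Hs3st3a1, a heparan sulfate sulfotransferase gene, chr11:64520001-64521000, read 85.0% and 92.9% in KO and 40.4% and 37.6% in WT. In these 3, too, both KO libraries lay above both WT libraries. Rassf8 was the nearest gene of chr6:145687001-145688000, at 86.1% and 78.7% in KO and 37.7% and 38.8% in WT.

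Members were spread over the genome, from 0.0663% of tiles on chromosome 16 to 0.164% on chromosome 11. By number of members the fullest megabases were 34 Mb of chromosome 17 and 43 Mb of chromosome 4 with 11 each (1.52% and 1.38% of their tiles). By share, 84 Mb of chromosome 8 came just above these, with 9 of 579 tiles (1.55%).

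The libraries of the 2 diets were compared within each genotype, a contrast that the rule did not use directly, although it used the levels of all 4 libraries. The level at 30 minus 3 ppm had a median of 0.405 points in KO and 0.0475 in WT, and the gain at 30 ppm minus the gain at 3 ppm a median of 0.138, with 1386 members (82.5%) within 10 points, against 65.1% of intermediate tiles and 85% of all tiles. The rule asked for a gain at both diets and so bound the members towards alike gains. Fisher's exact test on the summed reads of each tile (two-sided, Benjamini-Hochberg adjusted over 1863069 tiles, called at an adjusted p of 0.05 and 10 points) called 3 members in KO, where 0.0683% of all tiles were called, and 5 in WT, where 0.047% were. With 10 or more reads per CpG the calls were 2 and 3, and with reads thinned to the shallowest library 2 and 4, so not all calls named below hold in either setting. With 1 library per group the test compares libraries and not diets, and the reads of a tile are not independent. An unadjusted p under 0.05 was reached by 178 members in KO (10.6%, against 7.13% of all tiles) and by 188 in WT (11.2%, against 6.54%). Members have more reads and levels nearer to the middle than other tiles, and the part of either in these shares was not tested.

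Of the 3 called in KO, 1 was higher and 2 were lower at 30 ppm. Emx1, a homeobox gene of the dorsal forebrain, had an exon tile at 60.8% at 30 ppm and 43.4% at 3 ppm in KO (adjusted p = 0.0085 by Fisher's exact test), while WT read 15.7% and 9.52% (adjusted p = 0.74). An exon tile of Dido1, chr2:180659001-180660000, was lower at 30 ppm in both genotypes, at 69.0% against 87.8% in KO (Fisher's exact test, adjusted p = 2.1e-05) and 21.1% against 35.5% in WT (adjusted p = 0.024). A member in an exon of Prdm6 was lower at 30 ppm in KO, at 59.5% against 73.5% (Fisher's exact test, adjusted p = 0.043), and read 18.4% and 15.7% in WT. In WT, Zfp467 (47.6% against 15.7%) and Tnik (59.8% against 43.1%) were higher at 30 ppm, and Celf4 (42.9% against 58.6%), a tile nearest to Gm10647 (19.8% against 43.0%) and Dido1 were lower. Calls of this test thus went both ways in both genotypes.

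A Wald test of the diet by genotype difference in log odds (0.5 added to each count, Benjamini-Hochberg adjusted over all tiles) called 3 members, where 0.0692% of all tiles were called, and 136 had an unadjusted p under 0.05 (8.10%, with 7.73% of all tiles). The rule used the same gains, so nothing is read from the members' share beside that of all tiles, and the values below describe these libraries. The gain was larger at 30 ppm in an exon tile of Celf4, which encodes an RNA-binding protein of neurons (51.4 and 29.8 points), and near Gm10647 (55.7 and 36.7 points). It was larger at 3 ppm in an exon tile of Dmrt3, a transcription factor gene (26.9 and 48.1 points). In all 3 the KO library was above the WT library at both diets, as the rule required, and the test rests on the gains the rule used and on libraries of different litters. With reads thinned to the shallowest library 1 member was called, and with 10 or more reads per CpG 2 were.

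The authors deposited regions called by DSS from the same pairs of libraries, and their overlap with members is therefore no independent evidence. Regions called as higher in KO overlapped 1086 members at 30 ppm (64.6%) and 1176 at 3 ppm (70%), against 0.318% and 0.315% of all tiles. Both lists covered 935 members (55.7%), 1 list covered 392, and 353 (21%) were in neither. Seen from the lists, 1072 of 4359 autosomal regions at 30 ppm (24.6%) and 1153 of 4362 at 3 ppm (26.4%) overlapped a member. Regions called as lower in KO, 42 at 30 ppm and 50 at 3 ppm, could hardly overlap a member by construction, and none did. Regions called between the diets as higher at 30 ppm overlapped 3 members in KO and 3 in WT (0.179% each). Of all tiles they overlapped 0.00643% in KO and 0.00367% in WT. Those called as lower at 30 ppm overlapped 0 members in either genotype.

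At the threshold, the 270 members whose smaller gain was under 26 points had median levels of 37.1% in WT and 65.1% in KO, 19 CpGs per kb and 36.7% in islands or shores. The 296 tiles just outside, with a smaller gain of 24 to 25 points, had 37.0% and 64.5%, 19.5 CpGs per kb and 38.2%. The edge of the set therefore divides tiles that are alike in these measures.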

How the data were processed

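Whole-genome bisulfite libraries of 4 embryonic brains were analysed, 1 per genotype and diet. Reads had been trimmed by the authors with Trim Galore 0.6.10 and aligned to GRCm38.p6 with Bismark 0.23.1, duplicates removed, and CpG calls of the 2 strands combined. Each deposited table lists, per CpG, the fraction of methylated reads and the read count. Methylated reads are their product, a whole number at every CpG. CpGs with 5 or more reads in all 4 libraries were summed in 1 kb tiles with Python 3.11.15, numpy 2.4.6, pandas 2.3.3, scipy 1.17.1, statsmodels 0.14.6 and numba 0.67.0. Reads per CpG averaged 13.2 to 21.2. Sequence came from RefSeq GRCm38.p6 and genes from GENCODE mouse release 21, CpG islands were called from CpG-dense runs outside repeats, and distances run to the start sites of protein-coding genes unless said otherwise. The members, the 20 gene lists and the tests were chosen with earlier results of these data known. Genes named are the 20 promoter members of largest smaller gain, the 5 longest runs, the 5 such members over 50 kb from any gene start, up to 4 per list and up to 5 per diet test, of which some are not reported here. The tests were tried on simulated reads that are independent within a tile. Reads of the real tiles are not, so this is no check of the calls made on them. Alternatives were another read minimum, thinned reads, other gains, mean CpG levels, shifted tiles, stricter islands, a 5 kb window and removal of SNP-like CpGs. The authors' region lists split by direction were used for overlap only, and their unsplit lists were not used.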

Additional observations from a re-analysis of the deposited data

Results flagged for a closer look

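In 3 members the Wald test on reads, adjusted over all tiles tested, called a difference between the gains of the 2 diets. The gain at 30 ppm minus that at 3 ppm was 21.6 points in the exon tile of Celf4, -21.1 points in the exon tile of Dmrt3 and 18.9 points in the tile nearest to Gm10647. Each rests on 1 library per group from different litters and on the gains that chose the members, so the test compares libraries, and with reads thinned to the shallowest library 1 member was called.

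In the stretch of chromosome 10 left out of the members, 40 to 46 Mb, 43 of 4759 tiles (0.904%) passed the same gain at both diets, against 0.110% elsewhere. It also held 114 of the CpGs whose levels look like a sequence difference between the genotypes, against 3 in the rest of the autosomes, and the part of strain in this share was not tested.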

How the results depend on the processing

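Over 9 other settings 71 values were recomputed: 23 moved beyond the limit set for them and 48 did not. Counts, shares and levels cannot change sign and the rule bounds the gains, so nothing is read from the lack of reversals. With 10 or more reads per CpG there were 1017 members and 326 genes in place of 472, with 2 diet calls in KO, 3 in WT and 2 diet by genotype calls. A start site lay within 1 kb of 32.2% of these members, and adjacent tiles had 6.04 points (median for the mean of both diets, in place of 6.54). A gain of 20 points gave 3973 members, median gains of 27.1 and 26.3 points, a WT level of 37.0%, 20 CpGs per kb, 1062 genes and 5.37 points in adjacent tiles. A gain of 30 points gave 723 members, 36.6 points at both diets, 29.2% in WT, 23 CpGs per kb, 206 genes and 8.14 points. The median gain at 3 ppm was 31.9 with thinned reads and with shifted tiles, and thinning left 2 diet calls in KO, 4 in WT and 1 diet by genotype call. Stricter islands put 21.6% of members in islands or shores, and a 5 kb window put 46.2% at a start site. Mean CpG levels gave 1736 members, and removal of SNP-like CpGs left 1680. Members held 0 of these CpGs, so that setting could hardly move a value. Apart from the gain and read minima, the cause of these moves was not tested. No paired analysis was possible because each group holds 1 library, and no library could be left out for the same reason. Depth limits single tiles, since the interval of a member's difference had a median width of 21.4 points at 30 ppm and 18.4 at 3 ppm.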
